A study of Mus musculus with 6 samples.

Results

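H3K27ac was examined at the promoters of long non-coding RNA (lncRNA) genes in mouse alveolar macrophages (AMs), the phagocytes that reside in the air spaces of the lung. Overlapping peaks of both Cell Signaling libraries were merged on the 19 autosomes and X, and the 29277 merged regions that held a peak of each replicate were kept. Regions counted as lncRNA promoters if the midpoint was at most 1 kb from a transcription start site (TSS) of a lncRNA gene of the GENCODE vM21 annotation (lincRNA, antisense, processed_transcript or bidirectional_promoter_lncRNA) and over 3 kb from every protein-coding TSS. This rule took 516 regions, 1.76% of all shared regions and 1.66% of their bases, and it used position only, never the strength of a peak.

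The series held 6 samples: H3K27ac was captured with an antibody of Active Motif in 1 library and with one of Cell Signaling in 2, and the 3 inputs served only as controls of the authors' peak calls. All cells were wild-type (WT) AMs from bronchoalveolar lavage, and the study's methods give 9-week-old C57BL/6J mice. Cells were fixed with formaldehyde, sorted by flow cytometry and profiled by HT-ChIPmentation, in which the transposase Tn5 inserts sequencing adapters into chromatin held on antibody beads. Nothing in the labels says that the replicates came from separate animals. Nothing in the sources used here says that the antibodies were compared in the same run or at equal depth, so antibody, run and depth cannot be told apart. Which sonicator served which library is not given, and with 1 Active Motif library no difference between antibodies was tested. The peak lists held 36364 (Active Motif), 56175 (Cell Signaling replicate 1) and 49139 peaks (replicate 2), and a missing peak means only that none was called. All 12 AM marker genes examined had a shared region within 1 kb of a TSS, and no marker of B cells, epithelium or endothelium did. Cd2 of 4 T and NK cell markers and S100a8 of 4 neutrophil markers also had one. The study names Cd2 among AM core genes, so it is not a marker of T and NK cells alone.

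LncRNAs are transcripts without a long open reading frame. Some act in the nucleus on chromatin or on neighbouring genes, some hold small nucleolar RNAs (snoRNAs) or microRNAs that are cut out of the transcript, and for most no function is known. H3K27ac marks active promoters and enhancers, so acetylation at a lncRNA start can belong to a promoter, to an enhancer that is itself transcribed, or to both, and these data cannot separate them. Promoters of broadly used genes are often rich in CpG dinucleotides, whereas enhancers and many tissue-restricted promoters are CpG-poor.

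To show both kinds of promoter, windows of 300 bases (250 before and 50 from the annotated TSS on) are printed for the 3 CpG-rich regions and for 2 of the 3 CpG-poor regions with the highest fold enrichment, ranked by the lower of both Cell Signaling replicates, and for 4 lncRNAs with a known role (Norad, Snhg8, Mirt1 and Jpx, chosen after their values were seen). CpG-rich means a GC share of at least 50% and an observed/expected CpG ratio of at least 0.6. Sequences were read 5′ to 3′ along the gene's strand from RefSeq's copy of GRCm38 (mm10). Capitals mark matches, on either strand, to 15 short motifs: the TATA box (TATAAA), the CCAAT box (CCAAT), SP1 (GGGCGG), ETS (CCGGAAGT), PU.1 (GAGGAAGT), AP-1 (TGANTCA), CRE (TGACGTCA), C/EBP (TTGCNNAA), NRF1 (TGCGCANGC), the E-box (CACGTG), RUNX (TGTGGT), IRF (GAAANTGAA), EGR (GCGTGGGCG), nuclear receptors (AGGTCA) and MAF (TGCTGAC). A match is a description of the letters and not a bound site.

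The CpG-rich windows belong to 2410006H16Rik (chr11:62602627-62602926, plus strand), 1700113A16Rik (chr3:88177657-88177956, minus strand) and Gm6410 (chr8:4678212-4678511, plus strand). They hold 31, 22 and 24 CpG dinucleotides, and the first and second each hold a pair of SP1 matches.
2410006H16Rik: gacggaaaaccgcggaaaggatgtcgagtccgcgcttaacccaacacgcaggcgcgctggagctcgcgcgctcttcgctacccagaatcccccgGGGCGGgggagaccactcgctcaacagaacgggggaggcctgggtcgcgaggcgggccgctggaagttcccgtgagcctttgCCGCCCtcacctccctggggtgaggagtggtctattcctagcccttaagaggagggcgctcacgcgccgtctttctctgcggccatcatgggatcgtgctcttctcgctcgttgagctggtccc
1700113A16Rik: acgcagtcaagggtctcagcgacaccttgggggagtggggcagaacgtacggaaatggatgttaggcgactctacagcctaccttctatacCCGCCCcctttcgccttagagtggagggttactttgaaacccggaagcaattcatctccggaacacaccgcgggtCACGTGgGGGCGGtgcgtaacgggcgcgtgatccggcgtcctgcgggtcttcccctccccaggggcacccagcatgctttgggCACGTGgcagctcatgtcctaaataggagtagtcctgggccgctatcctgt
Gm6410: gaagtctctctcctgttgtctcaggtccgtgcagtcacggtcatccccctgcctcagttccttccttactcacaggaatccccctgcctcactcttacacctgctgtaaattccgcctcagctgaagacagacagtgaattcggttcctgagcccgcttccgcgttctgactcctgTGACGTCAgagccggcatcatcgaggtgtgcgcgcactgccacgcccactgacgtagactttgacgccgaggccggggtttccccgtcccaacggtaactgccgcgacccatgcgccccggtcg

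The CpG-poor windows belong to Gm16096 (chr9:40783412-40783711, minus strand) and AC163635.1 (chr17:29434708-29435007, minus strand). They hold 1 and 5 CpG dinucleotides and no SP1 match.
Gm16096: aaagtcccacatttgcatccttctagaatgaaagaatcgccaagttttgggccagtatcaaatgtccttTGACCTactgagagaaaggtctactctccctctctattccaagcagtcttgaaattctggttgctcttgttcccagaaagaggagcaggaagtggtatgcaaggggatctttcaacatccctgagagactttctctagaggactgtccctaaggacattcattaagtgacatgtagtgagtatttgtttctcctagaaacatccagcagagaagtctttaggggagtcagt
AC163635.1: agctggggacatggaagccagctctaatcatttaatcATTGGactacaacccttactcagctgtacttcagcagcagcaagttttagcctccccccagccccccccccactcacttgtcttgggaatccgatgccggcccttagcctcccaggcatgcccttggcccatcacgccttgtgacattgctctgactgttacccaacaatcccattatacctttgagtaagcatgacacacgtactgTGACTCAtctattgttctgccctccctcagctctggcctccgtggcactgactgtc

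The lncRNAs with a known role are Norad, which the annotation calls 2900097C17Rik and which binds Pumilio proteins (chr2:156392930-156393229, minus strand), the snoRNA host Snhg8 (chr3:123508281-123508580, minus strand), Mirt1, named for its rise after myocardial infarction (chr19:53464734-53465033, minus strand), and Jpx, an activator of Xist (chrX:103493469-103493768, plus strand). Norad's window starts from the annotated TSS nearest the midpoint of its region. Snhg8 holds TATAAA beginning 36 bases before the TSS and 4 SP1 matches, Jpx holds 2 SP1 matches, and Mirt1 (3 CpG dinucleotides) holds matches to PU.1, AP-1 and RUNX at 120, 153 and 219 bases before the TSS.
Norad: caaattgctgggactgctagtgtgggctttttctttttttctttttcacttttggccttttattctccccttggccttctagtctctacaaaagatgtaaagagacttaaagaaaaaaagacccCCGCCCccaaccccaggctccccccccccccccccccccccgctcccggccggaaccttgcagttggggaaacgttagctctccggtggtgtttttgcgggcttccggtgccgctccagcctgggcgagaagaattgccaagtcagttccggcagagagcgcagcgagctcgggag
Snhg8: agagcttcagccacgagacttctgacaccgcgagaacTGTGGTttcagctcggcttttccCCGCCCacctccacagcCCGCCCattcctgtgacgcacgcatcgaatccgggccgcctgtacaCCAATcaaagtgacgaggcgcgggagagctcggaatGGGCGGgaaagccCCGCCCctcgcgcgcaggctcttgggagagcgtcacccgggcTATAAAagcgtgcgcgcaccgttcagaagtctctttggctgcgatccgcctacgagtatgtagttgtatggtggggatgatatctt
Mirt1: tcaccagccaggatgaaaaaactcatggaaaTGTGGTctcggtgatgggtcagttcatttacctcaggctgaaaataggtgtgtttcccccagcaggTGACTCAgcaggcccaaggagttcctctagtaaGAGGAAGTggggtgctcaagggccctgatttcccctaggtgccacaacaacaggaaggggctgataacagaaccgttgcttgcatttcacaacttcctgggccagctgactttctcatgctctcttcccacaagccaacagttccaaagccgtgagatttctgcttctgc
Jpx: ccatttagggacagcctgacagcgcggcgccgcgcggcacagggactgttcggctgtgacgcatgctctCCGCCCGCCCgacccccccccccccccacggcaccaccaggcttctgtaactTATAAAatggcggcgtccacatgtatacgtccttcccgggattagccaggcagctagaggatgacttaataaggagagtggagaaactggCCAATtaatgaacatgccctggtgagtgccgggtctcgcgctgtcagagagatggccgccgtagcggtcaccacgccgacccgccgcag

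These regions lay mostly between genes. Of the 516, 414 had their midpoint outside every protein-coding gene, 91 in an intron and 11 in an exon of one. Of those inside a coding gene, 91 lncRNAs ran on the opposite strand of the host, 10 on the same strand and 1 had hosts on both. The nearest lncRNA was a lincRNA for 328 regions, an antisense gene for 106, a processed_transcript for 81 and a bidirectional_promoter_lncRNA for 1. They represented 477 lncRNA genes, of which 37 had more than 1 region, with 3 each at 1810026B05Rik (Chaserr) and D230017M19Rik, so regions of 1 gene are not independent. The median distance from midpoint to lncRNA TSS was 273 bp, and 407 regions (78.9%) covered the TSS itself. The nearest protein-coding TSS was a median of 25.9 kb away (quartiles 11.1 and 63.1 kb), and 78 regions (15.1%) were over 100 kb from one. RefSeq, a separate annotation, placed a lncRNA start within 1 kb of 218 (42.2%) and a coding start within 3 kb of 17, among them Zswim6, Ptpmt1 and Gpr141b.

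Few lncRNA genes of the genome were acetylated in this way. Of 9241 lncRNA genes, 6872 had a TSS over 3 kb from coding TSS, and 485 of these (7.06%, 95% Wilson interval 6.48 to 7.69) were at one of the 516 regions. A shared region lay within 1 kb of any TSS of these genes, also one close to a coding TSS, at 740 of them (10.8%). The share of protein-coding genes was 47.5% (10333 of 21755). Any TSS of a gene counted, and coding genes have more of them (93145 positions) than the 9241 lncRNA genes (13782). The shares were not adjusted for this. The share at one of the 516 regions was 6.49% (310 of 4774) for lincRNAs, 6.10% (99 of 1624) for antisense genes and 16.1% (75 of 465, interval 13.1 to 19.7) for processed transcripts. Of the 2369 lncRNA genes that lay close to coding promoters, 46.5% had a shared region, but there the mark of the lncRNA and of its coding neighbour cannot be told apart. Intervals here and below cover counting error only, and regions are not replicates.

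Acetylation at lncRNA promoters lay between that of coding promoters (9657 regions within 1 kb of a coding TSS) and of regions far from any TSS (16071 regions over 3 kb from every coding or lncRNA TSS). The median width was 1395 bp (quartiles 842 and 2191), against 1633 bp at coding promoters and 1209 bp far from TSS. In Cell Signaling replicate 1 the authors' fold enrichment over background had a median of 10.4 (quartiles 6.15 and 22.3), against 16.1 and 7.69. Replicate 2 gave 16.8 (9.46 and 29.0), against 24.0 and 11.5. In the Active Motif library the lncRNA promoters with a peak had a median fold of 8.71, against 10.2 and 7.35. The order was the same in all 3 libraries, with overlapping quartiles, but it depends on the midpoint rule. A second set was the 524 regions that covered a lncRNA TSS, at any distance of the midpoint from it. Their midpoints were still over 3 kb from every coding TSS. They had a median width of 2035 bp and median folds of 18.5 and 24.6 in replicates 1 and 2, above the values of coding promoters just given. Of these 524, 501 covered no coding TSS and had medians of 1957 bp, 17.3 and 24.14, also above those values. When coding promoters were also taken as the 9589 regions that covered a TSS, their medians were 1866 bp, 19.2 and 27.04, so the folds at lncRNA promoters were then lower and the width was greater. In bulk chromatin a mark in fewer cells and a weaker mark per cell cannot be told apart.

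An Active Motif peak was present at 328 of the 516 regions, 63.6% (59.3 to 67.6), against 61.5% of all shared regions, a share near that of the lncRNA promoters. It was 80.2% (79.4 to 80.9) at coding promoters and 51.2% (50.4 to 51.9) far from TSS. The 524 regions that covered a lncRNA TSS had a peak in 79.6% (75.9 to 82.8), which is close to the coding promoters of the midpoint rule. The 501 of them without a coding TSS had one in 78.6% (74.8 to 82.0). Regions that covered a coding TSS had one in 87.4% (86.7 to 88.0). With peaks of replicate 1 alone, which adds weak peaks, the lncRNA share was 40.6% of 924 regions. Regions with an Active Motif peak were wider and stronger in the Cell Signaling lists (median width 1886 bp, median folds 18.5 and 25.1) than the 188 without (702 bp, 5.77 and 8.16). All shared regions were therefore split into 5 groups of equal size by the lower Cell Signaling fold. From the weakest to the strongest group, an Active Motif peak was at 7 of 82, 33 of 110, 69 of 102, 106 of 109 and 113 of 113 lncRNA promoters, or 8.54% in the weakest and 67.6% in the middle group. Far from TSS the shares were 8.28, 25.6, 68.1, 97.8 and 99.8%. Coding promoters differed most in the middle group, where 82.8% (81.1 to 84.5) had a peak, beside 67.6% (58.1 to 75.9) of lncRNA promoters.

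**Figure D1:**
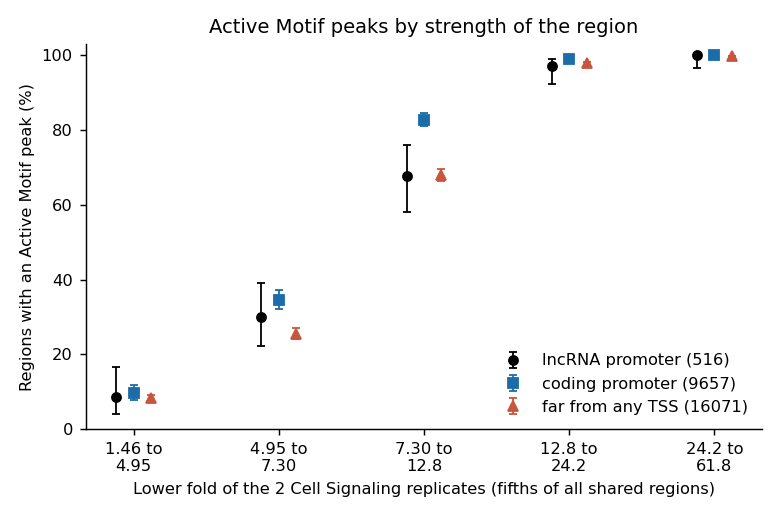
Percent of regions with an Active Motif peak (y axis) in 5 groups of the lower Cell Signaling fold (x axis), for 516 lncRNA promoters (black), 9657 coding promoters (blue) and 16071 regions far from any TSS (red); bars are 95% Wilson intervals. The shares rise from under 10% to about 100% in every class, and in the middle group coding promoters (82.8%) stand above lncRNA promoters (67.6%).

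The replicates ranked the 516 regions alike. Over these regions the log2 folds of both Cell Signaling replicates had a Pearson correlation of 0.868 and the folds a Spearman correlation of 0.892 (n = 516 regions that share 2 libraries and their depth, given as a description). Replicate 2 was higher at 383 regions (74.2%), with a median ratio to replicate 1 of 1.35. This lean was not particular to lncRNA promoters, since the ratio was 1.32 over all shared regions and 1.37 at coding promoters. Both replicates exceeded a fold of 20 at 139 regions.

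**Figure D2:**
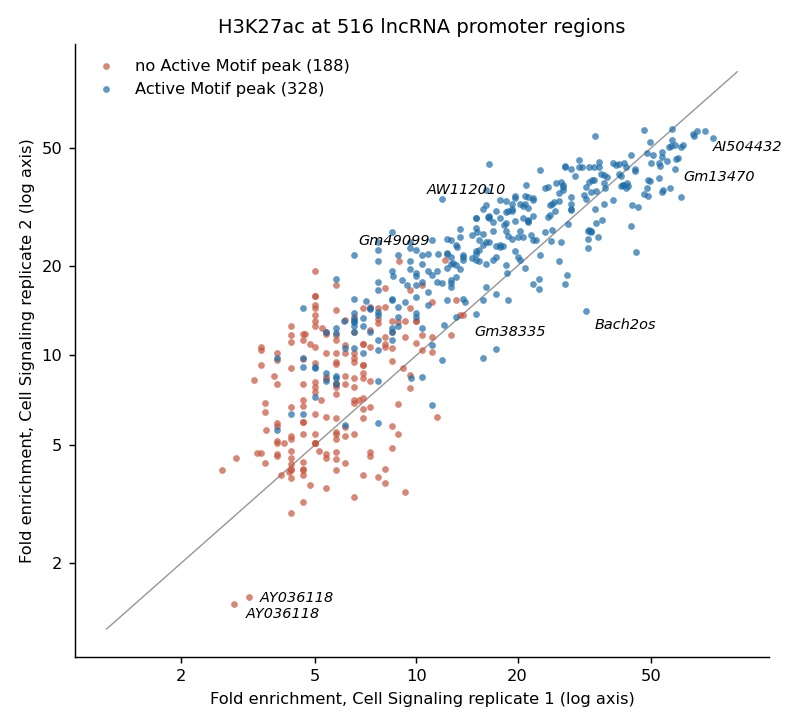
Fold enrichment of each of the 516 lncRNA promoter regions in Cell Signaling replicate 1 (x axis) and replicate 2 (y axis), both on log axes, coloured by the presence of an Active Motif peak (328 with, 188 without); the line marks equal folds. Regions without an Active Motif peak gather at low folds, most points lie above the line, and both AY036118 regions stand apart at the lower left.

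The midpoint rule places every member near an annotated start, so the fall of coverage away from the TSS is set by the choice of members. In replicate 1, 72.1% of the 516 regions had a peak on the TSS itself, 27.1% had one 1000 bp upstream and 32.9% had one 1000 bp downstream. Replicate 2 gave 81.8% on the TSS and the Active Motif library 38.6%. Any peak of the library at that position was counted, also one outside the region. The share in replicate 2 can thus exceed the 78.9% of regions that covered the TSS themselves. At coding promoters the peaks covered the TSS more often, in 83.1, 91.8 and 57.1% of regions. The strongest summit lay downstream of the TSS at 49.2% of lncRNA promoters in replicate 1 (44.9 to 53.5), 54.5% in replicate 2 (50.1 to 58.7) and 55.8% of those with an Active Motif peak (50.4 to 61.1). The intervals of replicate 2 and of the Active Motif library thus lay just above an even split, and that of replicate 1 included it. Coding promoters gave 47.0, 56.3 and 56.1%. Regions that covered their TSS had an Active Motif peak in 74.2% of cases and those beside it in 23.9%, but the latter were also narrower (median 542 bp against 1651 bp).

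**Figure D3:**
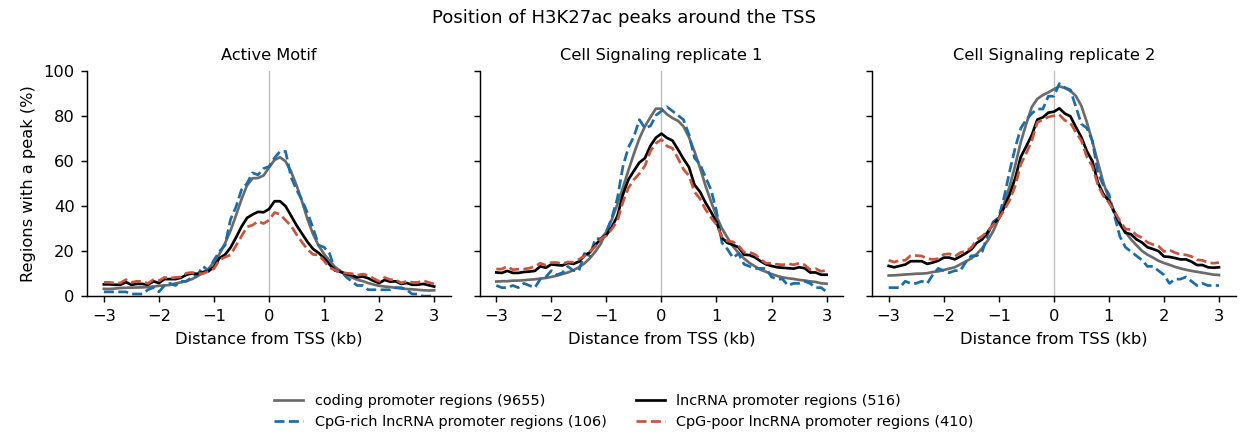
Percent of regions with a peak (y axis) at each distance from the TSS in kb (x axis, direction of transcription to the right) in the 3 libraries, for coding promoters (grey), all lncRNA promoters (black) and the CpG-rich (blue, dashed) and CpG-poor lncRNA promoters (red, dashed). Any peak of the library at a position counts, also one outside the region. Each set was chosen by a midpoint within 1 kb of a TSS, which sets the rise of every curve near it. On the TSS in replicate 1 the coding promoters (83.1%) lie above all lncRNA promoters (72.1%).

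CpG content split the lncRNA promoters. Of the 516 windows, 106 (20.5%, interval 17.3 to 24.2) were CpG-rich, against 69.8% (68.9 to 70.7) at coding promoters and 1.49% (1.31 to 1.69) at the replicate 1 summits of regions far from TSS. Among 5827 lncRNA genes away from coding TSS without a peak near a TSS in any of the 3 libraries, 2.75% (2.36 to 3.20) were CpG-rich. These were taken at the 5′ end of the gene record, and the 516 at the annotated TSS nearest the midpoint. With gene-record 5′ ends only, the share at lncRNA promoters was 24.0%. Windows of lncRNA promoter regions were thus CpG-rich more often than lncRNA starts without a peak and less often than coding promoters, by intervals that do not overlap. Repeats were fewer than at starts without a peak, as 5.04% of the 516 windows were soft-masked over at least 50% of their bases, against 15.9%. The share was 5.65% at the 5′ ends of all genes and 0.994% at coding promoters, so the 516 were near all genes. The authors kept only alignments of high quality, and the part of this filter in the gap to starts without a peak was not tested.

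The CpG-rich lncRNA promoters had folds near those of CpG-rich coding promoters in the Cell Signaling replicates and a higher median in the Active Motif library. Their median folds were 17.3 (quartiles 7.78 and 32.7) in replicate 1 and 26.6 (13.6 and 38.2) in replicate 2, beside 17.7 and 25.6 at CpG-rich coding promoters. The 410 CpG-poor lncRNA promoters had medians of 9.61 (5.77 and 19.3) and 14.6 (8.54 and 25.2), beside 12.3 and 19.3 at CpG-poor coding promoters. In the Active Motif library, over regions with a peak, the medians were 12.8 (7.57 and 18.6) for CpG-rich and 7.92 (5.54 and 12.3) for CpG-poor lncRNA promoters, beside 10.2 and 9.38 at coding promoters. An Active Motif peak was present at 79.2% of the CpG-rich (84 of 106, interval 70.6 to 85.9) and 59.5% of the CpG-poor lncRNA promoters (244 of 410, 54.7 to 64.2), against 84.7% and 69.8% of coding promoters. At like strength the shares differed less clearly. From the weakest to the strongest group of fold, 1 of 9, 8 of 16, 10 of 15, 23 of 24 and 42 of 42 CpG-rich and 6 of 73, 25 of 94, 59 of 87, 83 of 85 and 71 of 71 CpG-poor lncRNA promoters had a peak. The second group leaned to the CpG-rich (interval 28.0 to 72.0%, against 26.6%, 18.7 to 36.3), the shares in the middle group were 66.7 and 67.8%, and the intervals overlapped in all 5 groups. The strongest group held 39.6% of the CpG-rich and 17.3% of the CpG-poor lncRNA promoters. CpG-rich regions were also wider (1739 bp against 1296 bp), more often intergenic (94.3% against 76.6%) and more often backed by a RefSeq lncRNA start (58.5% against 38.0%).

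**Figure D4:**
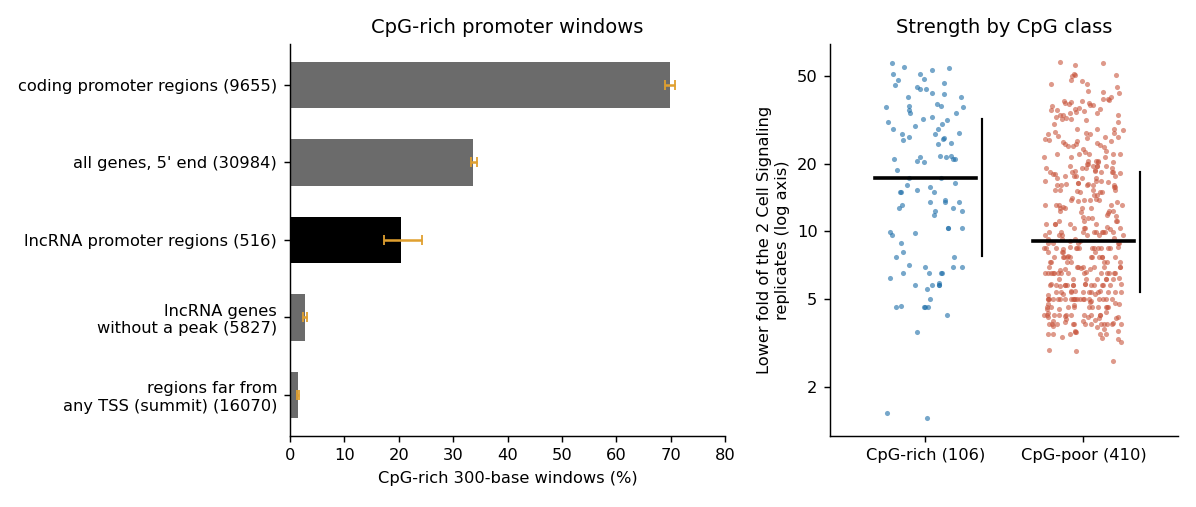
Left, percent of windows of 300 bases that were CpG-rich in 5 sets (bars from 0, with 95% Wilson intervals); right, lower fold of both Cell Signaling replicates (log axis) of each CpG-rich (106) and CpG-poor (410) lncRNA promoter, with the median (thick line) and quartiles (vertical line). LncRNA promoters (20.5%) lie between coding promoters (69.8%) and lncRNA genes without a peak (2.75%), and the spread of fold within each CpG class is wide.

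Apart from EGR, which matched no lncRNA window, motifs that themselves hold CG were more frequent in the CpG-rich windows. The choice of windows by CpG favours this. For NRF1 the intervals overlapped (3.24 to 13.0%, against 0.829 to 3.48%). The SP1 letters GGGCGG were in 71.7% of the CpG-rich and 14.1% of the CpG-poor lncRNA windows, 61.8% of coding promoter windows and 35.8% of the 5′ ends of all genes. CACGTG, the E-box that MYC, MITF and TFE factors can bind, was in 17.9% (11.8 to 26.3) of the CpG-rich and 6.34% (4.36 to 9.13) of the CpG-poor lncRNA windows. Of the general promoter motifs without CG, CCAAT was in 30.2% (22.3 to 39.5) and 36.6% (32.1 to 41.4), and TATAAA in 10.4% (5.89 to 17.6) and 13.2% (10.2 to 16.8), with intervals that overlap. The AP-1 letters were in 2.83% (0.967 to 7.99) of the CpG-rich and 12.4% (9.59 to 16.0) of the CpG-poor windows, and those of RUNX in 10.4% and 21.7%, again with intervals that do not overlap. The PU.1 letters GAGGAAGT were in 37 of the 516 windows, 7.17% (5.25 to 9.73), which is near the 7.10% at summits far from TSS and above the 2.92% (2.52 to 3.38) of lncRNA starts without a peak, 3.76% of coding promoter windows and 3.22% of the 5′ ends of all genes. PU.1, encoded by Spi1, is the lineage factor of macrophages. TATAAA was in 12.6% of the 516, against 5.56% at coding promoters and 16.6% at lncRNA starts without a peak. The letters searched for AP-1, C/EBP, RUNX and nuclear receptors had intervals that included the share of lncRNA starts without a peak. None of the 15 motifs was found in 74 windows (14.3%). The sets differ in base composition, for which these shares were not adjusted. Windows far from TSS were centred on the replicate 1 summit and all others were placed by a TSS, so their shares are not like for like.

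The strongest lncRNA promoters were carried by all 3 libraries. By the lower Cell Signaling fold the first 10 were Gm16096, 2410006H16Rik, AI504432, AC163635.1, 1700113A16Rik, Gm6410, Gm2885, AI662270, 4930578M01Rik and Fbxl12os, and all 10 had an Active Motif peak. So had 100% of lncRNA and of coding promoters and 99.8% of regions far from TSS in the strongest group of fold. The peak therefore does not set these 10 apart. Gm16096 (chr9:40777897-40787354), in an exon of the adhesion gene Clmp, had folds of 57.6 and 57.7 in Cell Signaling replicates 1 and 2 and 19.6 in the Active Motif library. 2410006H16Rik (chr11:62602062-62604929) had folds of 68.4, 56.8 and 33.1, and its region held the RefSeq snoRNA genes Snord49a, Snord49b and Snord65. These snoRNA genes thus lie beside the CpG-rich start printed above. AI504432 had folds of 72.3, 56.8 and 44.3 and was the widest of all members at 18638 bp. Its nearest coding TSS is that of the potassium channel gene Kcna3, 4.29 kb from the midpoint, and the region covers it, so the marks of both starts cannot be told apart. The same holds for 1 other member, AC123818.1, whose region of 8899 bp covers a TSS of Nfatc1, and the other 514 cover no coding TSS. AC163635.1 had folds of 66.6, 55.5 and 31.4, and its nearest coding TSS, 56.0 kb away, is that of the kinase gene Pim1. 1700113A16Rik, nearest to the transcription factor gene Mef2d, had folds of 66.9, 54.6 and 27.1. Gm6410 had 76.5, 53.9 and 28.7, and Gm2885, nearest to the membrane linker gene Ezr, had 57.7, 52.9 and 38.3. AI662270 had 62.3, 50.9 and 37.1, 4930578M01Rik had 58.8, 50.9 and 24.2, and Fbxl12os had 57.3, 50.6 and 20.4. Thus CpG-rich and CpG-poor starts both stood at the top, 6 of the 10 being CpG-rich. The share was 42 of 113 in the strongest group and 20.5% of all 516.

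After AI504432, the widest regions were 2310001H17Rik (12389 bp), AW112010 (11928 bp), Gm26626 (11006 bp) and AA645442 (9865 bp), all CpG-poor. The 2310001H17Rik region (chr6:129226817-129239205) had folds of 61.1 and 50.4 in Cell Signaling replicates 1 and 2 and 33.2 in the Active Motif library. AW112010 (chr19:11044574-11056501), an lncRNA induced in inflamed immune cells that also codes for a small peptide, had 20.4, 32.2 and 8.52. AA645442, in an intron of the Rac activator gene Vav2, had 31.9, 33.7 and 14.9. Width and strength were thus not the same order, since AW112010 was wide at a moderate fold.

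Members without an Active Motif peak reached a Cell Signaling fold of 21.0 at most. The first 5 by the lower fold were Gm38335 (13.8 and 13.7 in replicates 1 and 2), 2310002F09Rik (13.5 and 13.7), Gm12762 (13.1 and 15.3), Gm49099 (12.2 and 21.0) and 2210408F21Rik (12.7 and 11.7). Of these, Gm12762 was CpG-rich. The weakest 3 were Gm31763 (2.64 and 4.11) and both regions of AY036118, which had folds of 3.18 and 1.54 at one and 2.88 and 1.46 at the other. At AY036118 the −log10 q in replicate 1 was 23.9 and 24.1 despite these low folds, and both regions overlap the RefSeq ribosomal RNA pseudogene Rn18s-rs5, a sequence with near-identical copies elsewhere. Whether reads from such copies were placed here was not tested, so the acetylation of AY036118 is uncertain.

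The lists hold well-known lncRNAs and were chosen with earlier results known, so their counts are descriptions, to be set beside the 7.06% of all lncRNA genes away from coding TSS that were at a member and the 10.8% that had a shared region. Of 12 nuclear and regulatory lncRNAs found in the annotation, 6 were at a member, 2 (Tug1 and Crnde) had a region close to a coding TSS, 2 (Malat1 and Neat1) had a region whose midpoint missed the 1 kb window, and 2 (Miat and Nron) had none. Lncpint, induced by p53, had folds of 53.8 and 48.2 in Cell Signaling replicates 1 and 2 and 34.1 in the Active Motif library over 7352 bp. Chaserr, which limits the output of its neighbour Chd2, had 34.1, 54.8 and 38.3 over 9481 bp at the strongest of its 3 regions. Norad had 34.2, 27.8 and 7.60 at the stronger of 2 regions. Trp53cor1 (lincRNA-p21), beside Cdkn1a, had 8.46, 12.4 and 6.40 at the stronger of 2 regions, and Pvt1, the neighbour of Myc, had 11.1, 10.8 and 4.75. Firre, an X-linked RNA of nuclear architecture, had 5.38 and 10.2 and no Active Motif peak. So this list ran from near the top of the 516 to their lower part, with Lncpint above the upper quartile and Firre below the lower one in replicate 1.

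Malat1 and Neat1, the abundant RNAs of nuclear speckles and paraspeckles, lay in domains of 13985 bp and 14611 bp. Malat1 had folds of 65.3, 46.5 and 31.9 in the same order of libraries, and Neat1 had 71.5, 53.5 and 43.9. Their midpoints were 1261 and 1664 bp from the nearest lncRNA TSS, which put both outside the rule. In all, 117 regions covered a lncRNA TSS but had a midpoint over 1 kb from it and over 3 kb from every coding TSS. These regions were wide (median 6645 bp) and strong (median fold 37.2 in replicate 2), and 115 of them (98.3%) had an Active Motif peak. The 516 members thus leave out wide domains over lncRNA starts. Of the 524 regions over a lncRNA TSS, 501 covered no coding TSS, and only 2 members covered one. Some of the wide domains left out therefore also span a coding start, where the marks cannot be told apart.

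Host genes of snoRNAs, which carry guides of ribosomal RNA modification in their introns, made up the largest group of listed members. Of 17 found, 9 were members, 6 (Gas5, Snhg1, Snhg3, Snhg9, Snhg10 and Zfas1) had a region close to a coding TSS, and 2 (Snhg14 and Snhg18) had none. Of these 9, 8 were CpG-rich and 8 had an Active Motif peak. Snhg8 had folds of 41.5, 44.5 and 15.0, and Snhg12 had 33.8, 43.2 and 17.97. Snhg15 had 27.7, 42.9 and 26.4 at the stronger of 2 regions, and Epb41l4aos had 21.2, 37.3 and 18.5. Snhg5 (20.8, 28.9 and 13.6), Snhg20 (13.5, 26.7 and 11.5) and Snhg6 (12.3, 22.1 and 7.67) were lower. Snhg17 had 6.53, 12.9 and 3.84, and Dancr had 7.69 and 13.3 without an Active Motif peak. All 9 were higher in replicate 2 than in replicate 1, as were 74.2% of the 516. A RefSeq snoRNA gene lay inside 8 of the 516 regions (1.55%, 0.788 to 3.03), 5 of them at listed hosts and 3 at 1110038B12Rik, 1810032O08Rik and 2410006H16Rik, which are not in the list, against 0.425% (0.313 to 0.575) of coding promoters and 0.0622% of regions far from TSS.

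MicroRNA hosts gave 1 member of 11 found, Mir670hg, with folds of 26.5, 35.3 and 10.1. Mir142hg, the source of a microRNA of blood cells, had 44.2, 44.1 and 17.2 but a midpoint 1039 bp from the nearest lncRNA TSS, Dleu2 lay outside for the same reason (1113 bp), and Mir22hg was close to a coding TSS. The other 7, Mir155hg and Mir17hg among them, had no shared region within 1 kb of a TSS.

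Immune lncRNAs were represented by 5 of 11 found, of which 4 were CpG-poor. F630028O10Rik had folds of 40.7, 40.1 and 17.5 over 9316 bp, and its region held the RefSeq gene of Mir223, a microRNA of myeloid cells. Mirt1 had 19.99, 25.1 and 8.83 at the stronger of 2 regions. Ptgs2os2 (lincRNA-Cox2), an lncRNA that macrophages raise after Toll-like receptor signals, had 10.4 and 11.7 and no Active Motif peak. AW112010 and Pvt1, given above, complete the 5. Gm14005 (Morrbid), which controls survival of short-lived myeloid cells, had 69.6, 54.8 and 31.3, but its midpoint was 1662 bp from the nearest lncRNA TSS. Neat1, which is also in this list, lay outside as given above, Dnmt3aos was close to a coding TSS, and Ptgs2os, Mirt2 and Mir155hg had no shared region.

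Of 11 imprinted and X-inactivation lncRNAs, 2 were members, both activators of Xist. Jpx had folds of 25.8, 30.7 and 15.8, and Ftx had 36.1, 40.5 and 18.7 at the stronger of 2 regions. Kcnq1ot1 had 34.6, 36.4 and 19.2 with a midpoint 1904 bp from such a TSS, and Xist, H19, Meg3 and the other 5 had no shared region. None of 11 lncRNAs of other tissues, such as Hotair, Sox2ot and Fendrr, had one. Over all lists, 22 of 70 genes found were at a member region, 12 of them CpG-rich and 19 with an Active Motif peak, beside 20.5% and 63.6% of the 516 regions. For genes with several regions the strongest was counted.

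**Figure D5:**
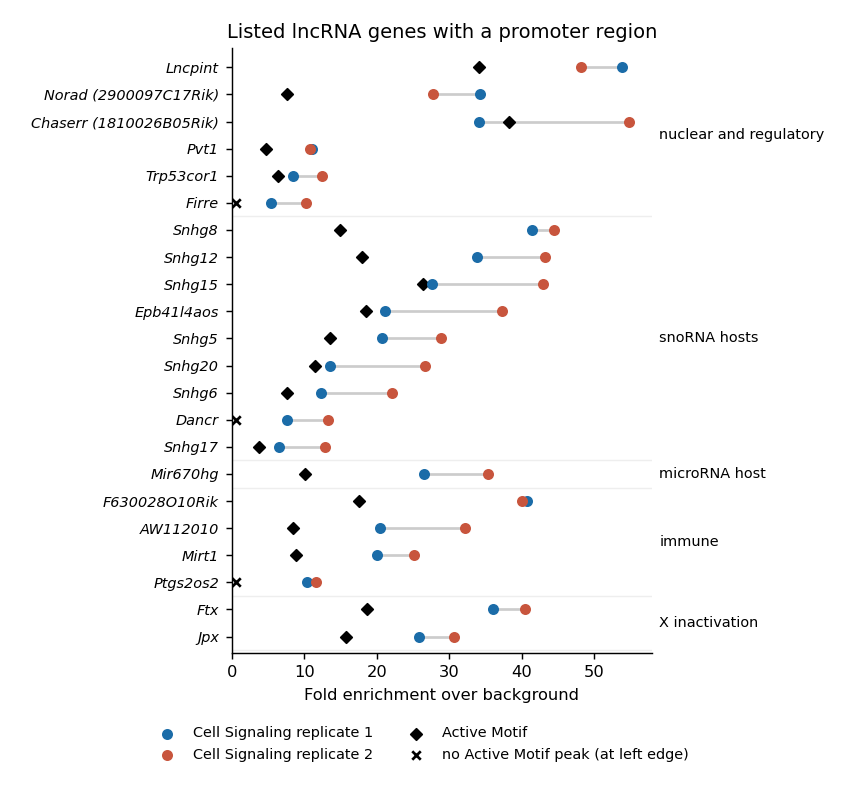
Fold enrichment (x axis) at the strongest member region of each of the 22 listed lncRNA genes (y axis, grouped by list) in Cell Signaling replicate 1 (blue), replicate 2 (red) and the Active Motif library (black diamonds); a cross at the left edge means no Active Motif peak. Lncpint and Chaserr reach folds above 50 in one of the replicates, and Firre, Dancr and Ptgs2os2 have no Active Motif peak.

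The neighbours of AM genes were few. The nearest protein-coding TSS belonged to 1 of 40 AM core genes at 6 of the 516 regions (1.16%, 0.534 to 2.51), against 1.18% of regions far from TSS, and to 1 of 40 AM regulators at 10 (1.94%, 1.06 to 3.53), against 1.88%. Both shares were near that background. The core neighbours were 2310001H17Rik, given above, 42.4 kb from Cd69, 4930412L05Rik, 58.2 kb from Abca1, Gm38335, 13.0 kb from Fabp5, both regions of Gm49099 beside the ribonuclease gene Ear2, and Gm48483, 42.2 kb from Perp. 4930412L05Rik, whose start is the RefSeq gene Lexis1, an lncRNA named for its induction by liver X receptors, had folds of 16.9, 21.0 and 9.48 in Cell Signaling replicates 1 and 2 and the Active Motif library. Gm49099 had 12.2 and 21.0 at one region and 8.46 and 12.03 at the other, and Gm48483 had 4.997 and 10.7, with no Active Motif peak at any of the 3 regions. An Active Motif peak was at 2 of these 6 regions and at 7 of the 10 beside regulators, counts too small to set either apart from the 63.6% of all 516.

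Beside regulators, Gm13470, whose nearest coding TSS is that of Zeb2 at 1325 kb, had folds of 59.2, 45.8 and 11.4. Runx2os2, in an intron of Runx2, had 22.3, 29.5 and 18.2. Gm26626, in an intron of Runx1, had 23.1, 16.7 and 10.9, and Gm49723, 36.1 kb from a Runx1 TSS, had 9.65, 8.36 and 5.15. Bach2os, in an intron of Bach2, differed between replicates, with 31.9 in replicate 1 against 14.1 in replicate 2, and had 9.15 with the Active Motif antibody. Pvt1 near Myc is given above. Gm12708, 141 kb from Jun, had 9.08, 17.9 and 3.60, while Junos at 41.7 kb had 3.54 and 4.33, Gm40304, in an intron of Rbpj, had 7.30 and 6.71, and AC107768.1 near Smad2 had 5.15 and 4.76, none of these 3 with an Active Motif peak. More generally, the nearest coding gene had a shared region within 1 kb of a TSS for 74.2% of lncRNA promoters (70.3 to 77.8), against 83.8% (83.2 to 84.3) of regions far from TSS. Over all coding genes the share was 47.5%. The nearest coding TSS was a median of 25.9 kb away at lncRNA promoters and 16.8 kb at regions far from TSS, and the part of this distance in the gap was not tested.

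The limits of the rule fell within a continuum. Just inside the 1 kb limit were 4930532M18Rik (991 bp, folds 22.3 and 24.5 in replicates 1 and 2), Gm16267 (992 bp, 7.30 and 14.6) and 4930447M23Rik (997 bp, 5.77 and 5.42), and just outside were Gm27201 (1002 bp, 10.1 and 15.5), AC158549.1 (6.92 and 7.77) and Gm48500 (1008 bp, 26.5 and 30.4). At the 3 kb limit, Gm16348, Gm42889 and 2500004C02Rik lay inside at 3066, 3110 and 3114 bp from a coding TSS, and Gm35853, 4930455G09Rik and Gm42047 outside at 2983, 2925 and 2923 bp.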

How the data were processed

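Peaks were analysed from the 3 deposited lists, 1 per H3K27ac library, on mm10. Per the study's methods, the authors trimmed reads with Cutadapt and aligned them with Bowtie2. They removed duplicates, kept properly paired alignments of high quality and called peaks with MACS3 against input at a q-value of 0.05. The deposited values are a ratio (fold over background), −log10 values of p-value and q-value, a score derived from the q-value, and a summit offset. For the Cell Signaling reads, bcl2fastq 2.20.0.422 is listed in the submitters' processing notes. Read depth, which sets how many weak sites pass, was not used here.

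Overlap needed 1 bp. A region's value in a library was the highest fold of its peaks there. All transcripts of the comprehensive GENCODE vM21 annotation gave TSS (93145 coding and 13782 lncRNA positions). Python 3.11.15, pandas 2.3.3, NumPy 2.4.6, SciPy 1.17.1 and matplotlib 3.10.9 were used, and the scripts were tested on simulated data. No test was run: counts have 95% Wilson intervals. Text names the listed genes at member regions, the 10 strongest, 5 widest, 5 strongest without an Active Motif peak and 3 weakest regions, and neighbours of AM core genes and regulators, and any other gene was named after its values were seen. The promoter window of 1 CpG-poor region is not reported here. Members, lists and motifs were chosen with earlier results of these data known.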

Additional observations from a re-analysis of the deposited data

How the results depend on the processing

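Each of 11 results was recomputed under up to 16 settings, 5 of them (basic annotation, coding transcripts only, members near RefSeq coding starts left out, members over a coding TSS left out, covering rule for both classes) chosen after the data were seen. Of 162 values, 136 stayed within the interval, the replicate spread or 1.5 times the count. This tally is generous. The setting that added 5′ ends of coding gene records could not move any value, since such an end is already a transcript start. The replicate spread of the median fold was 4.52, a wide limit beside medians of 10.4 and 16.8. Requiring peaks to overlap by 50% of both moved the Active Motif share to 77.0%, the CpG-rich share to 24.4%, the width to 1660 bp, the median folds to 16.2 and 23.1, and the share of lncRNA genes with a member to 5.05%. Requiring the region to cover a TSS gave an Active Motif share of 79.6%, a width of 2035 bp and folds of 18.5 and 24.6, and the gap to coding promoters, which kept the midpoint rule, shrank from 16.6 to 0.579 percentage points, while width and folds turned from below to above theirs. With coding promoters also taken by a covered TSS the gap was 7.79 points. The gap in Active Motif share between CpG classes, 19.7 points in the main setting, fell to 10.6 when the region covered a lncRNA TSS. It was 13.8 with 50% overlap, 15.0 with coding TSS over 10 kb away and 15.1 with equal numbers of peaks. These values stayed within its wide interval of 9.89 to 27.9. Equal numbers of peaks (36364 per list) gave an Active Motif share of 72.3%. The share of lncRNA genes with a member was 6.36% in that setting, 6.30% at a −log10 q of at least 5 and 5.14% within 500 bp. Without 1 of the replicates, which keeps weak peaks of the other alone, the lowest and highest values were 734 (without replicate 1) and 924 regions (without replicate 2), Active Motif shares of 40.6 and 45.6%, widths of 333 and 917 bp, CpG-rich shares of 16.0 and 18.4%, gene shares of 8.83 and 9.46%, and gaps to coding promoters of 18.6 and 19.3 and between CpG classes of 20.3 and 23.3 percentage points. The median fold was then 5.77 in replicate 1 and 10.7 in replicate 2. No paired analysis was possible because no result comes from a test and the inputs have no peak list. Without read counts, whether an absent peak reflects depth was not tested.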
